A study of Rattus norvegicus with 4 samples.

Results

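The miR-183, miR-96 and miR-182 cluster was represented by 2 of the 243 miRNAs listed for serum exosomes (Exos) of rats, rno-miR-182 and rno-miR-183-5p. Its members were defined by name, as any listed arm of miR-183, miR-96 or miR-182, of which RefSeq gives 5. The remaining arms, miR-183-3p, miR-96-5p and miR-96-3p, were not analysed here. The cluster was picked from the series with its values known: both members had been selected on their difference between libraries labelled Exercise and Sedentary, and the study had picked miR-183-5p by the same contrast. Differences of the members between these labels are therefore given as a description. No p-value of a member is given, and whether a fit over all miRNAs called it is stated with the share called overall and supports nothing.

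Small RNA was sequenced from Exos of blood serum in 4 libraries, 2 with the treatment label Exercise and 2 with the label Sedentary. Exercise was a program of treadmill running over about a month, and Sedentary rats were the controls. The design text counts 20 rats in either group, and the methods describe the study's animals as adult male SD rats. The number of rats behind a library was not given in the sources used here. Library titles begin with E where the treatment label is Sedentary and with N where it is Exercise, whereas the study abbreviates exercise as Exe, so titles and labels conflict. Exercise libraries and Sedentary libraries are named below by the treatment label alone. Every sign turns if the title letters are read as the groups. For each miRNA named below that the paper lists as differential, its direction is opposite to the one given here. Those higher in the libraries labelled Exercise, a cluster member among them, are down in the paper's exercise Exos, and those lower are up. The published signs thus follow the title letters, with E as exercise. The values alone do not show whether label or title is in error. The direction of any difference with respect to exercise itself is therefore not settled here.

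miRNAs guide the silencing complex to messenger RNAs that pair with their seed, the bases 2 to 8 from the 5′ end. The 3 miRNAs of this cluster are made from one primary transcript and are known from sensory cells of the ear, eye and olfactory system, where mutations in the miR-96 seed cause progressive hearing loss. miR-182 is also known from activated T cells, and both miR-182 and miR-183 from endocrine and other epithelial cells. In serum the cell of origin of a vesicle is not known, and more vesicles with a miRNA cannot be told apart from more copies per vesicle.

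The mature sequences are shown first, because the members differ at 2 seed bases and because a listed miRNA reads along the opposite strand of miR-183-5p. The seed is in capitals in the first 3 sequences, which are RefSeq's on the build GRCr8 and, for both members, equal the deposited ones with U in place of T. miR-96-5p is printed as the middle miRNA of the cluster, without values.
rno-miR-182: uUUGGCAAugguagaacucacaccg
rno-miR-96-5p: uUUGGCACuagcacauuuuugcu
rno-miR-183-5p: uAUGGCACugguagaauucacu

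miR-182 has 25 nt and miR-183-5p 22 nt. Counted from 1 at the 5′ end and without gaps, they were identical at 18 of 22 bases. The differences, with the base of miR-182 first, were U2A and A8C in the seed and C17U and A22U behind it. The matching sites in a messenger RNA would read TTGCCAA for miR-182, GTGCCAT for miR-183-5p and GTGCCAA for miR-96-5p. Thus miR-96-5p shares 6 of 7 seed bases with either neighbour, and the 2 members share 5. Among the deposited sequences, 0 others had the seed of miR-182 and 0 that of miR-183-5p. The closest listed sequence to each member was the other member, at 7 edits (insertions, deletions or substitutions). The next closest was 10 edits from miR-182 (miR-140-3p and miR-203b-3p) and 8 edits from miR-183-5p (miR-299a-3p and miR-493-5p).

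On GRCr8, miR-183-5p matched chr4:59756106-59756127 and miR-182 matched chr4:59752249-59752273, both on the minus strand. In the direction of transcription Mir183 comes first, Mir96 follows after 97 bases and Mir182 after a further 3533 bases, so that the hairpins span 3908 bases. The annotated protein-coding neighbours are Ube2h and Nrf1, and the cluster lies between them in no gene other than its own miRNAs and one antisense miRNA. The authors aligned reads to mRatBN7.2, so these positions are those of the RefSeq sequences and not of the alignment. The annotated hairpins of both members are printed with the mature miRNA in capitals, because they show where it lies in each annotation.
Mir183: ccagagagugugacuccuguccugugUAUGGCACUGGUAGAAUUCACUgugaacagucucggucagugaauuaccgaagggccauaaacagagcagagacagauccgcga
Mir182: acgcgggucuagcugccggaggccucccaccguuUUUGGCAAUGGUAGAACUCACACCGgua

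miR-183-5p occupies bases 27 to 48 of the 110 bases of its hairpin, on the 5′ arm. miR-182 occupies bases 35 to 59 of an annotated hairpin of 62 bases, with 3 bases behind it. RefSeq lists no second arm for this gene, and this short annotation does not show the arm of miR-182.

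The values are RPM, the reads of a miRNA scaled to a fixed total per library, and that total holds more than the listed miRNAs. Taking the smallest value of a library as 1 read, totals were 20780612 to 22140315 reads, of which 2.93% to 3.92% fell on listed miRNAs, and every non-zero value was a whole multiple within 0.001 reads. The Exercise libraries held fewer reads on listed miRNAs (649210 and 693085) than the Sedentary libraries (754341 and 814439), while more miRNAs were above 0 (179 and 191 against 151 and 152). miR-486, the most abundant of red cell miRNAs here, and the liver miRNA miR-122-5p were present in every library.

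Both members were detected in all 4 libraries and were higher in the libraries labelled Exercise. miR-182 held 199 RPM (4363 reads) and 165 RPM (3644 reads) in the Exercise libraries, replicates 1 and 2, against 76.6 RPM (1687 reads) and 103 RPM (2142 reads) in the Sedentary libraries. The groups did not overlap, and the lowest Exercise library lay 1.60-fold above the highest Sedentary library. The means were 181.6 ± 24.003 RPM (SD, n = 2) and 89.9 ± 18.7 RPM (SD, n = 2), a ratio of 2.02.

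miR-183-5p held 83.5 RPM (1834 reads) and 105 RPM (2332 reads) in the Exercise libraries, replicates 1 and 2. It held 35.3 RPM (777 reads) and 36.3 RPM (754 reads) in the Sedentary libraries. Here too the groups did not overlap, and single libraries differed between groups by 2.30-fold to 2.98-fold. The means were 94.4 ± 15.5 RPM (SD, n = 2) and 35.8 ± 0.700 RPM (SD, n = 2), a ratio of 2.64.

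**Figure D1:**
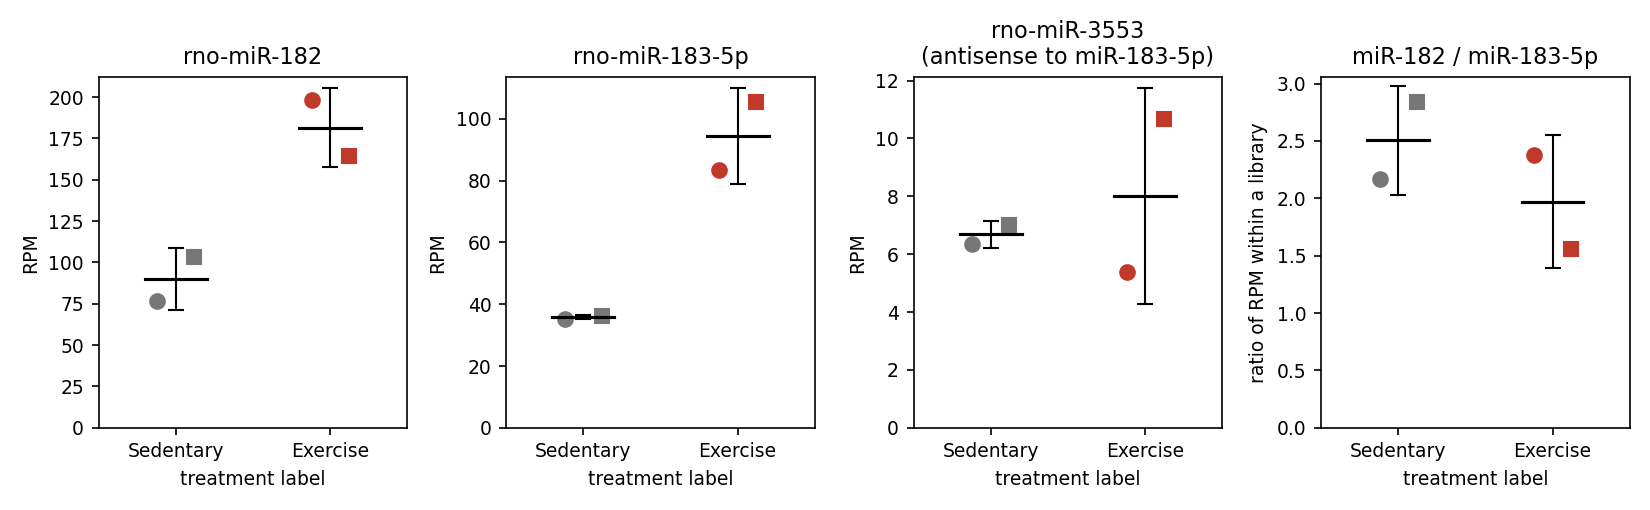
Values of each library by treatment label, with RPM on the vertical axis of the first 3 panels and the ratio of miR-182 to miR-183-5p within a library in the last; circles are replicate 1, squares replicate 2, the horizontal line is the mean and the error bar the SD (n = 2). miR-182 and miR-183-5p lie higher in both Exercise libraries than in both Sedentary libraries, whereas the antisense miR-3553 and the ratio overlap between the labels.

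On the scale of log2(RPM + 1), fitted with limma over the 178 miRNAs above 0 in at least 2 libraries, the difference of Exercise minus Sedentary was 1.02 for miR-182 (standard error 0.22) and 1.37 for miR-183-5p (standard error 0.24). The median over all tested miRNAs was 0.21, and 106 of 178 were positive. In order of the difference miR-183-5p was rank 25 and miR-182 rank 45 of 178. Ranked above both were also low miRNAs whose differences rest on values of 0, such as miR-16-5p (2.47) and miR-126a-5p (2.11). The order is reversed if the title letters are read as the groups. At the study's thresholds (adjusted p below 0.05, log2 difference beyond 1 in either direction), limma called 7.87% of all tested miRNAs, 5.06% as higher and 2.81% as lower in the Exercise libraries. Both members (2 of 2) were among those called higher. Of 9 other settings at these thresholds, with all libraries and the treatment labels as groups, miR-183-5p was called in 7 and miR-182 in 4, median-of-ratios scaling being among those that lost miR-182. With 1 library dropped at a time, miR-183-5p was called when either Sedentary replicate was dropped and lost when either Exercise replicate was, and miR-182 was called only when Sedentary replicate 2 was dropped. Non-overlap with Exercise higher was found for 32% of all tested miRNAs and with Exercise lower for 20.2%, so the non-overlap of both members is shared by 57 miRNAs. Since the same contrast chose the members, nothing is read from these counts.

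**Figure D2:**
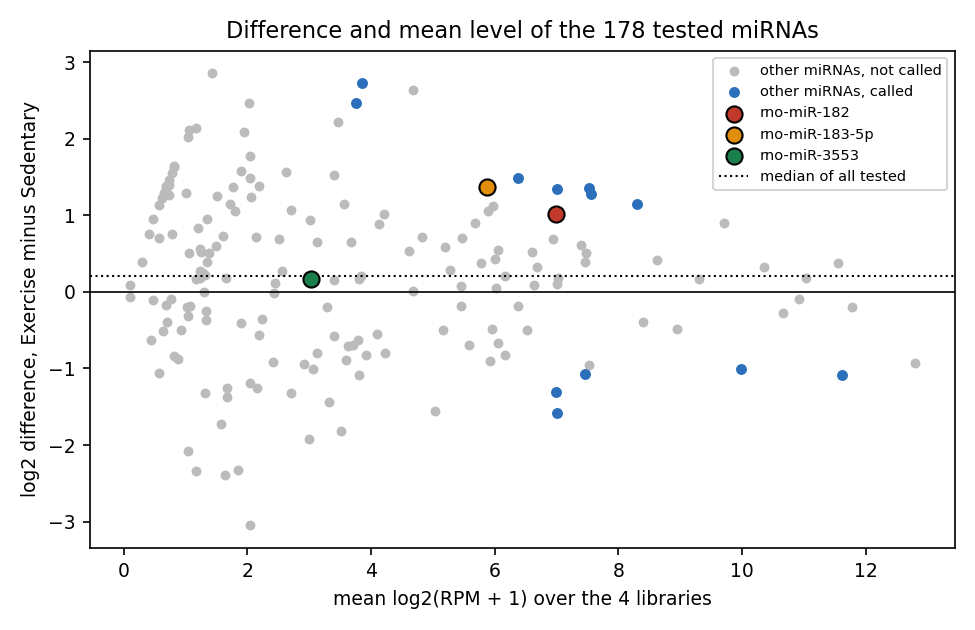
Log2 difference, Exercise minus Sedentary, on the vertical axis against the mean log2(RPM + 1) over the 4 libraries for the 178 tested miRNAs; blue points were called by limma, and the dotted line is the median of all tested, 0.21. miR-182 and miR-183-5p lie above the median at 1.02 and 1.37, and miR-3553 lies near it at 0.17.

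The members also stood higher in the order of miRNAs within a library. miR-182 ranked 21 and 22 among the listed miRNAs of the Exercise libraries, replicates 1 and 2, and 34 and 30 in the Sedentary libraries. miR-183-5p ranked 36 and 30 against 51 and 53. As a share of the reads on listed miRNAs, miR-182 took 0.630% (95% Wilson interval 0.611% to 0.648%) and 0.561% (0.543% to 0.580%) in the Exercise libraries. Its share in the Sedentary libraries was 0.224% (0.213% to 0.235%) and 0.263% (0.252% to 0.274%). The intervals cover counting error only, since the values carry no molecular identifiers, and for miR-182 they separate the replicates of a label as well as the labels.

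For miR-183-5p the share was 0.265% (0.253% to 0.277%) and 0.359% (0.345% to 0.374%) in the Exercise libraries. In the Sedentary libraries it was 0.103% (0.0960% to 0.111%) and 0.0926% (0.0862% to 0.0994%). Its Sedentary replicates thus overlapped within counting error, and its Exercise replicates did not. Over all listed miRNAs, replicates of a label differed by more than sampling noise, with a chi-square per degree of freedom of 46.4 for Exercise and 158 for Sedentary.

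Across labels the members differed in the same direction, and between replicates of a label they had no common direction that held under each scaling. Among the Exercise libraries, miR-182 was higher in replicate 1 and miR-183-5p in replicate 2. Among the Sedentary libraries, miR-182 was 1.35-fold higher in replicate 2, where miR-183-5p was 1.03-fold higher in RPM on fewer reads (754 against 777). miR-183-5p was lower in that replicate with median-of-ratios scaling (33.8 against 38.9) and with scaling to the summed listed miRNAs (31.1 against 34.6), while miR-182 stayed higher (96.1 against 84.5 and 88.3 against 75.1). miR-182 exceeded miR-183-5p in 4 of 4 libraries. Its RPM was 2.38 and 1.56 times that of miR-183-5p in the Exercise libraries, replicates 1 and 2, and 2.17 and 2.84 times in the Sedentary libraries. These ratios do not depend on how a library was scaled, and the labels overlapped. On the log2(RPM + 1) scale the difference of miR-182 was lower than that of miR-183-5p by an amount, -0.35, that is within 1 SD of the replicates (0.36). Leaving out Exercise replicate 1 made it -0.65 and leaving out Exercise replicate 2 made it -0.049, and it was -0.54 when Sedentary replicate 1 was dropped and -0.16 when Sedentary replicate 2 was dropped, so each of the 4 libraries moved its size. With 2 libraries against 2, no exact two-sided permutation test can give a p below 0.33, and 4 libraries are too few for a correlation.

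The summed level of both members was 282 and 269.9 RPM in the Exercise libraries and 112 and 139 RPM in the Sedentary libraries. The means were 276 ± 8.53 RPM (SD, n = 2) and 126 ± 19.4 RPM (SD, n = 2). The share of miR-182 in this sum was 70.4% and 61.0% against 68.5% and 74.0%, with no separation of the labels.

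Scaling moved the size of both differences and not their direction. Median-of-ratios scaling sets the typical miRNA equal between libraries, among those above 0 in every library. With it, the log2 difference was 0.91 for miR-182 (standard error 0.14) and 1.26 for miR-183-5p (standard error 0.22). With each library scaled to the sum of its listed miRNAs it was 1.28 (standard error 0.16) and 1.63 (standard error 0.23). The median of all tested miRNAs was 0.17 under the former and 0.44 under the latter, so both members stayed above it under each scaling. The groups did not overlap for either member under all 3 scalings. With single libraries left out, miR-182 lay between 0.80 (Sedentary replicate 1 dropped) and 1.23 (Sedentary replicate 2 dropped). miR-183-5p lay between 1.20 (Exercise replicate 2 dropped) and 1.53 (Exercise replicate 1 dropped).

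**Figure D3:**
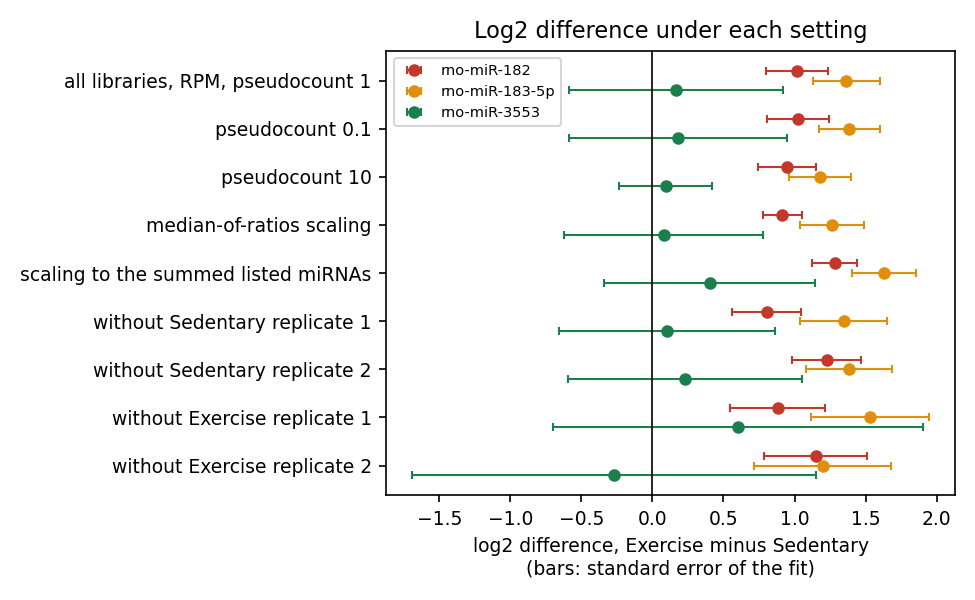
Log2 difference, Exercise minus Sedentary, on the horizontal axis for miR-182, miR-183-5p and the antisense miR-3553 under the settings named on the vertical axis, with the standard error of the fit as bars. miR-182 (0.80 to 1.28) and miR-183-5p (1.18 to 1.63) stay above 0 under every setting shown, whereas the bars of miR-3553 include 0 under every setting shown.

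The same locus gave a listed miRNA from its other strand, rno-miR-3553, which the rule for the cluster did not take and which was added after its values had been seen. Its gene Mir3553 lies on the plus strand inside the hairpin of Mir183, ending 3 bases and 1 base short of it at the lower and the upper end, and its hairpin of 106 bases is the exact reverse complement of that stretch. The mature miR-3553 (chr4:59756105-59756127, GRCr8) has 23 nt, of which the 22 in capitals below are the complete reverse complement of miR-183-5p.
rno-miR-3553: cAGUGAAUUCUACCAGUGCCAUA

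miR-3553 held 5.37 RPM (118 reads) and 10.7 RPM (236 reads) in the Exercise libraries, replicates 1 and 2. It held 6.36 RPM (140 reads) and 7.03 RPM (146 reads) in the Sedentary libraries. The labels overlapped, with the lowest and the highest value both from Exercise. Its log2 difference was 0.17 (standard error 0.76, 95% interval -1.70 to 2.03), and limma with Benjamini-Hochberg adjustment gave an adjusted p of 0.89. This interval holds the differences of both members, and whether the antisense miRNA differed from them was not tested. Relative to miR-183-5p, miR-3553 stood at 6.43% and 10.1% in the Exercise libraries and at 18.02% and 19.4% in the Sedentary libraries. These percentages did not overlap between the labels, but miR-183-5p had been selected on this contrast. Whether the authors' counting used the strand of a read was not given, and without strand reads of this pair cannot be told apart. The part of such sharing in either value was not tested.

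The miRNAs most like each member were found from the Euclidean distance between log2(RPM + 1) profiles over the 4 libraries, each centred on its own mean, among miRNAs with a mean of at least 10 RPM. For miR-182 these were, from the closest of 81 others, miR-30e-3p (distance 0.18), miR-181a-5p (0.24), miR-215 (0.28), miR-106b-3p (0.34) and miR-140-3p (0.37). For miR-183-5p they were miR-708-3p (0.22), miR-140-3p (0.37), miR-26a-5p (0.40), miR-150-5p (0.49) and miR-30e-3p (0.51). The members stood farther from each other, at a distance of 0.61, where miR-183-5p was rank 18 for miR-182 and miR-182 rank 9 for miR-183-5p. miR-30e-3p and miR-140-3p were thus near both members and closer to either than the members were to one another. These distances describe 4 libraries and carry no test.

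The neighbours differ widely in level. miR-30e-3p held 519 and 428 RPM in the Exercise libraries and 194 and 232 RPM in the Sedentary libraries, which repeats the order of the 4 values of miR-182. miR-708-3p, the closest to miR-183-5p, held 16.1 and 17.9 RPM against 4.91 and 5.63 RPM, and repeats the order of miR-183-5p. miR-140-3p held 309 and 274 RPM against 117 and 122 RPM.

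Other miRNAs known from sensory, neuroendocrine and epithelial cells did not share one direction. Of 16 miRNAs on this list, 9 were listed and 7 passed the filter on low values. Of these 7, 0 were called higher and 1 lower by limma, against 5.06% and 2.81% of all tested miRNAs, and the median log2 difference was 0.24 against 0.21 over all tested. This median has no stable direction, being -0.40 to 0.44 with a library left out and 1.43 with pseudocount 0.1. The summed level of the list was lower in the Exercise libraries (169 and 172 RPM) than in the Sedentary libraries (339 and 272 RPM). Most of it was miR-375-3p, the miRNA of pancreatic islets and other endocrine cells, which was called lower with 123 and 119 RPM against 291 and 223 RPM (log2 difference -1.07, standard error 0.19). This call was lost in 3 of 9 other settings with all libraries, among them scaling to the summed listed miRNAs (-0.80), and without Sedentary replicate 1 (-0.88) or either Exercise replicate.

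miR-7a-5p, abundant in endocrine cells and neurons, held 18.7 and 27.8 RPM in the Exercise libraries and 25.3 and 0 RPM in the Sedentary libraries. The value of 0 decided its log2 difference of 2.21 (standard error 1.52), which was -0.14 without that library, and a count of 0 allows up to 3 reads, or 0.144 RPM, in that library. miR-184, known from the lens and cornea, held 5.23 and 13.7 RPM against 13.6 and 27.1 RPM. miR-200a-3p, which maintains epithelial identity, held 15.2 and 6.73 RPM against 5.81 and 13.7 RPM. Neither was called, and miR-375-3p alone of the list was not overlapping with Exercise lower. miR-7b alone was not overlapping with Exercise higher, with 39 and 38 reads against 0 and 0.

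Few markers of blood and organ cells were called, some differed in level between the labels and others overlapped, and their part in the values of miR-182 and miR-183-5p was not tested. The white cell list (6 of 6 listed) summed to 191 and 200.4 RPM in the Exercise libraries, against 84.0 and 107 RPM in the Sedentary libraries. All 6 had a positive log2 difference (median 1.16 against 0.21 over all tested), but 4 of them were low with a 0 in at least 1 library, so the median depends on zeros and on the pseudocount. The 2 with a mean of at least 10 RPM, miR-150-5p and miR-146a-5p, lay at 1.49 and 0.077. miR-150-5p, the leading lymphocyte miRNA, was called with 149 and 129 RPM against 41.6 and 56.9 RPM. This call held in 7 of 9 other settings with all libraries, and was lost without the filter and with a single variance prior. miR-155-5p, of activated lymphocytes, was listed at 27 and 15 reads against 0 and 0. miR-146a-5p, also of leukocytes, held 34.0 and 57.4 RPM against 35.2 and 49.8 RPM. Its log2 difference turned to -0.023 with median-of-ratios scaling, to -0.17 without Sedentary replicate 1 and to -0.29 without Exercise replicate 2. The remaining leukocyte miRNAs were low: miR-142-3p, miR-142-5p and miR-223-3p held at most 6.28 RPM and each was at 0 in at least 1 library. Without Sedentary replicate 2, where both were at 0, the log2 difference of miR-223-3p went from 0.51 to -0.61 and that of miR-142-3p from 1.37 to 0.29.

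The platelet list (5 of 5 listed) summed to 212 and 192 RPM in the Exercise libraries against 151 and 157 RPM, with miR-191a-5p at 102 and 81.5 RPM against 48.2 and 35.6 RPM. The endothelial and platelet miRNA miR-126a-3p held 67.5 and 62.6 RPM against 57.6 and 68.4 RPM. miR-24-3p held 38.6 and 41.6 RPM against 44.8 and 46.3 RPM, and miR-221-3p at most 7.07 RPM. miR-126a-5p, the other arm of the endothelial miRNA, was low at 53 and 99 reads against 0 and 0. The red cell list (5 of 5) summed to 5774 and 4806 RPM against 8769 and 11312 RPM, nearly all of it miR-486. miR-451-5p, the most specific of red cell miRNAs, did not separate the labels, at 54.0 and 70.4 RPM against 14.7 and 148 RPM. miR-144-3p and miR-144-5p were each at 0 in 3 of 4 libraries, and miR-16-5p had 185 and 192 reads against 0 and 41.

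The liver list (4 of 4) summed to 933 and 931 RPM against 1535 and 1689 RPM, led by miR-122-5p, called lower at 696 and 732 RPM against 1394 and 1469 RPM. Its log2 difference of -1.003 lay at the threshold, and the call was lost in 3 of 9 other settings with all libraries, among them scaling to the summed listed miRNAs (-0.73), and without Sedentary replicate 2 or either Exercise replicate. miR-148a-3p held 122 and 110 RPM against 73.1 and 88.5 RPM, and miR-192-5p 115 and 88.9 RPM against 68.5 and 132 RPM. The muscle list (4 of 4) summed to 497 and 450 RPM against 371 and 428 RPM. Its leading member miR-1-3p held 473 and 435 RPM against 328 and 355 RPM, whereas miR-206-3p held 21.9 and 14.8 RPM against 41.6 and 72.9 RPM. Of 20 miRNAs tested on these 5 lists, limma called 1 higher (5%), of the white cell list, and 1 lower (5%), of the liver list, near the 5.06% and 2.81% of all tested miRNAs.

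**Figure D4:**
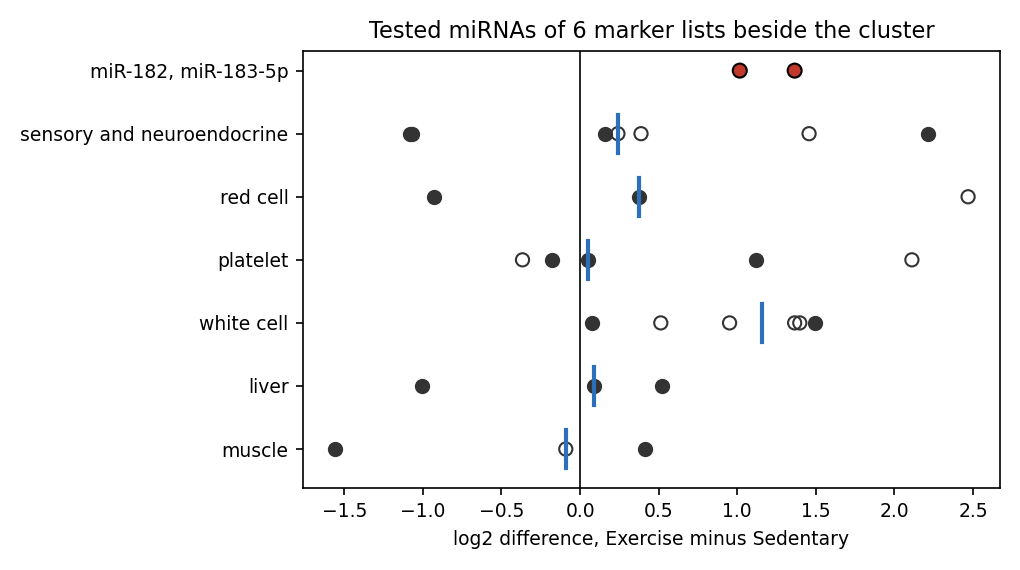
Log2 difference, Exercise minus Sedentary, on the horizontal axis for the tested miRNAs of 6 marker lists and, in the top line, the members of the cluster; filled points have a mean of at least 10 RPM, open points less, and the blue bar is the list's median. The cluster members (1.02 and 1.37) lie between the 2 filled white cell points (0.077 and 1.49), the white cell median (1.16) rests on miRNAs with values of 0, and the sensory and neuroendocrine miRNAs spread from -1.08 to 2.21.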

How the data were processed

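Reads were trimmed by the authors with cutadapt, kept at 18–35 nt, aligned to mRatBN7.2 with an aligner named Bowtie in the labels and Bowtie2 in the methods, and counted on miRBase miRNAs with featureCounts. The authors normalized the counts to RPM of a library total, without scaling for length, and deposited 1 such value per miRNA and library under the name TPM. 0 other columns of sample values were present.

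From these values, log2(RPM + 1) was fitted with limma 3.58.1 in R 4.3.3 (trended variance prior, Benjamini-Hochberg adjustment), for miRNAs above 0 in at least 2 libraries. The smallest value of a library was taken as 1 read, and reads so obtained were used for depth and intervals, never for a count test. Descriptions and figures used Python 3.11.15. The methods describe the study's replicates in general as independent and do not say how rats were divided among these libraries, so standard errors may measure technical spread.

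The members, the marker lists and the tests were chosen with earlier results of these data known. Named miRNAs are the members, those closest in sequence or profile, and the up to 4 most abundant or called of each list. miR-3553 and a few low miRNAs were added after their values were seen. Alternatives were not run for these low miRNAs or for those named only for their sequence. Alternatives changed the pseudocount, filter, scaling, variance prior, threshold, block and labels, or left out a library.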

Additional observations from a re-analysis of the deposited data

How the results depend on the processing

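Reading the title letters as the groups turned every sign by construction: -1.02 for miR-182, -1.37 for miR-183-5p, 0.35 for the ratio of the members and -0.24 for the sensory and neuroendocrine median. miR-182 was 1.28 and miR-183-5p 1.63 when scaled to the summed listed miRNAs, and miR-183-5p was 1.18 with pseudocount 10. With 1 library left out, miR-182 ranged from 0.80 to 1.23, miR-183-5p from 1.20 to 1.53, the ratio from -0.65 to -0.049, the list median from -0.40 to 0.44 and miR-3553 from -0.27 to 0.60. The list median was 1.43 with pseudocount 0.1, 0.012 with pseudocount 10 and -0.46 over the 4 list members whose mean reached 10 RPM. It was -0.40 when Sedentary replicate 1 was dropped, -0.14 when Sedentary replicate 2 was dropped and -0.17 when Exercise replicate 1 was dropped.

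limma called 14 miRNAs. The count was 3 without the filter (243 tested), 0 with a single variance prior (44 at an unadjusted p) and 39 at an unadjusted p under the trended prior. With 1 library left out it ranged from 0 to 39, where the lone library of a label is assumed to vary like the other label. The count was 30 and 39 when Sedentary replicates 1 and 2 were dropped, and 0 and 7 when the Exercise replicates were. Median-of-ratios scaling gave 14, split into 5 higher and 9 lower in place of 9 and 5, and scaling to the summed listed miRNAs gave 15, of which 13 were higher and 2 lower. Of 9 settings with all libraries and the study's thresholds, miR-183-5p was called in 7 and miR-182 in 4. A single variance prior and the absence of a filter lost both, and miR-182 was also lost with both other pseudocounts and with median-of-ratios scaling. The replicate numbers did not pair the libraries (correlation of deviations -0.15). The fit with the replicate block called 18, and the crossed replicate block, chosen after seeing the data, called 18 as well. For 29 other miRNAs (the closest in profile, miR-3553 and the tested miRNAs among the most abundant or called of each list), 19 of 340 values had the other sign, 14 of these values with a library left out. They belonged to 11 miRNAs, of which 0 were among those called with all libraries. Depth did not limit the members, which had at least 754 reads in each library.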
